A study of Homo sapiens with 18 samples.

Results

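The 10 genes described here encode antiviral restriction factors: BST2, ISG20, MX1, MX2, RSAD2, CMPK2, SAMHD1, IFITM1, IFITM2 and IFITM3. They were chosen by name from the 58050 gene identifiers of the deposited table, and each matched 1 identifier. RNA came from KNS-42, an established glioma cell line, here expressing the Cas9 nuclease and grown with puromycin. Besides parental cells there were 2 overexpressing lines, DDX3Xoe with codon-optimised DDX3X and DDX3Yoe with codon-optimised DDX3Y. All groups were transduced with a lentiviral guide RNA. Guide 395 is directed at endogenous DDX3X, and the negative control guide at AAVS1, a safe-harbour locus. RNA was collected on day 7, which gave 6 groups of 3 replicate libraries, 18 in all. The labels do not say whether replicates were separate cultures, so p-values measure the spread between these libraries, which may be technical. They also do not say whether the transgenic lines were single clones.

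Restriction factors are host proteins that block steps of a virus's life cycle from inside the cell. Most are made at a low level until type I or type III interferon binds its receptor. The receptor then signals through the JAK kinases to genes that carry a DNA element called the interferon-stimulated response element (ISRE). The 10 genes fall into 3 classes. ISG20, RSAD2, CMPK2 and SAMHD1 are enzymes that act on RNA or on nucleotides. MX1 and MX2 are dynamin-like GTPases that act on viral nucleoprotein or capsid complexes. BST2 and the 3 IFITM proteins act at membranes, on virus release and on virus entry respectively.

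Promoter stretches are shown because they display the ISRE-like sequence that was found for 6 of the 8 genes with a promoter window. RefSeq promoter windows on GRCh38.p14 were found for 8 of the 10 genes, in 13 windows, and IFITM2 and MX2 had no entry. The motif GAAANNGAAA, or TTTCNNTTTC as its reverse complement, was searched on both strands within the 250 bases before each annotated start, and overlapping matches were counted. It was present for 6 of the 8 genes, whereas 3.71% of the 27305 genes with a window held it. CMPK2 and SAMHD1 had no match. With 1 mismatch allowed, 8 of 8 genes matched, against 33.8% of all genes. A match is a description of the letters in the window and not a measured binding site. In the lines below, which read 5′ to 3′ on the gene's strand, capitals mark the motif.
ISG20, chr15:88638937-88638966, plus strand: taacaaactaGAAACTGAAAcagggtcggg
RSAD2, chr2:6877622-6877651, plus strand: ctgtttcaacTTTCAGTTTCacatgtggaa
MX1, chr21:41431844-41431873, plus strand: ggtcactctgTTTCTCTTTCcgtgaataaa
BST2, chr19:17405741-17405770, minus strand: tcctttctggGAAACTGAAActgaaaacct
IFITM1, chr11:313990-314019, plus strand: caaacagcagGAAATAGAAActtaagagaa
IFITM3, chr11:320876-320905, minus strand: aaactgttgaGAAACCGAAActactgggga

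ISG20 and BST2 carry the same 10 letters, and in BST2 a second match overlaps the one shown. IFITM3 also has a second match, which begins 52 bases before its start, while the one shown begins 35 bases before it. The motif begins 69 bases before the start in ISG20, 40 in IFITM1 and 130 in BST2. RSAD2 has windows for 2 starts, and the match lies 145 bases before the downstream one, with none before the first. MX1 has windows for 3 starts, and the match lies 196 bases before the one farthest downstream, with none before the other two. In the GENCODE 29 annotation the BST2 stretch lies upstream of the gene and the RSAD2 stretch in an intron of its longer model. Those of ISG20, IFITM1, IFITM3 and MX1 overlap an exon of some transcript of the same gene.

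Several of the genes are neighbours (GENCODE 29, GRCh38). RSAD2 (chr2:6865806-6898239, plus strand) and CMPK2 (chr2:6840570-6866635, minus strand) start head to head and overlap by 830 bases, away from their 3′ ends. MX2 (chr21:41361943-41409390) ends 10913 bases before MX1 (chr21:41420304-41459214), both on the plus strand. IFITM1 (chr11:313506-315272) lies inside the annotated span of IFITM2 (chr11:307631-315272) on the same strand, and IFITM3 (chr11:319669-327537) follows on the minus strand. Of the last 500 exonic bases of IFITM1, 70.2% also belong to IFITM2, so the split of reads between these 2 genes is uncertain. BST2 lies at chr19:17402939-17405648 and SAMHD1 at chr20:36889773-36951901, both on the minus strand, and ISG20 at chr15:88636153-88656483 on the plus strand. TLDC2, on the opposite strand, overlaps 18.2% of the last 500 exonic bases of SAMHD1, and the sources used here do not state whether counting used strand.

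Total reads per library lay between 5.67 M and 13.2 M (M, 1000000; median 8.85 M). DDX3X, the targeted gene, had 1780, 1923 and 1729 normalised reads in parental cells with AAVS1 and 861, 844 and 953 with guide 395 (log2 -1.03 ± 0.30 SE, limma adjusted p = 0.08). Its means with AAVS1 and guide 395 were 1111 and 903 in DDX3Xoe (log2 -0.33 ± 0.30 SE). In DDX3Yoe they were 1458.5 and 757 (-0.95 ± 0.30 SE). Under AAVS1, DDX3X was lower in DDX3Xoe than in parental cells by a log2 of -0.78 ± 0.30 SE, which was not called. The replicate 1 libraries labelled DDX3Xoe ran against their labels, with 668 reads under AAVS1 and 1416 under guide 395. For the 10 restriction factors, comparisons that use them are therefore also given without both. Calls of other genes in DDX3Xoe against parental cells under guide 395 are given only with single libraries left out. Of all genes 305 were called in that comparison, and 97 without both. The library labelled DDX3Yoe AAVS1 replicate 2 was among the 2 lowest of 18 for all 10 restriction factors, although its DDX3X value of 1557 was like that of its group. Endogenous DDX3Y was at 0 in all 18 libraries. Glial markers SOX2, VIM, GFAP, CD44 and SOX9 were present in every library, and OLIG2 and S100B were at 0 in all.

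With guide 395 in parental cells, transcripts of the restriction factors were higher than with AAVS1, by a median of 3.16 on the log2 scale over the 10 genes, against 0.017 over all 15228 genes tested. Only ISG20 and CMPK2 passed the test across all genes in the fit without replicate pairing, so 2 of 10 were called higher, beside 0.978% of all genes tested. Fits with a block on the replicate number assume that same-numbered libraries belong together in all kinds of cell, which is not known. A replicate block over all libraries called 3 of 10, beside 2.21% of all genes. With a block within each cell line, chosen after seeing the data, 7 were called, beside 2.52%: BST2, RSAD2, CMPK2, MX1, ISG20, MX2 and IFITM1. "Called" means an adjusted p under 0.05 from limma, fitted to log2(normalised reads + 1) with Benjamini-Hochberg adjustment. For 9 of the 10 genes every guide 395 library lay above every AAVS1 library, as was so for 10.7% of all genes tested, and IFITM3 was the exception. An unadjusted p under 0.05 was found for 8 of the 10, and for 16.89% of all genes. All 10 passed the filter on low values, CMPK2 and IFITM1 in 8 libraries outside parental cells with guide 395 and the others in at least 13.

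**Figure D1:**
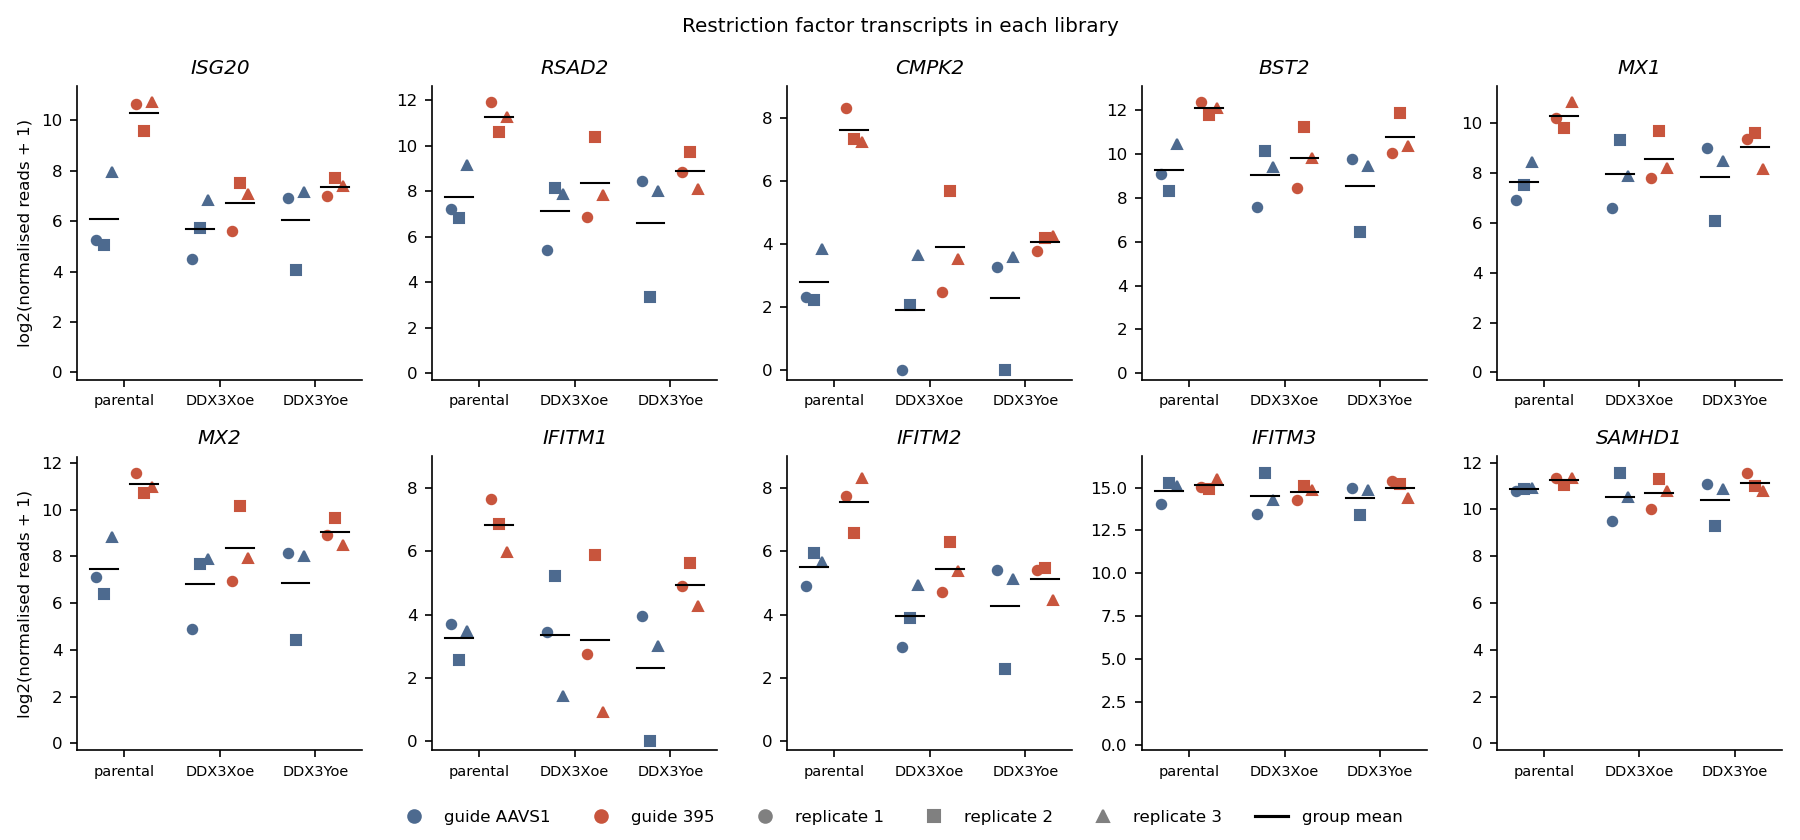
Each panel plots 1 gene, with log2(normalised reads + 1) on the vertical axis and the 3 kinds of cell along the horizontal axis. Blue is guide AAVS1, red is guide 395, the symbol gives the replicate number and the bar the group mean. The red parental libraries stand above the blue ones in every panel but IFITM3, while the colours mix in most panels of the transgenic cells.

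Among the enzymes, ISG20, a 3′-to-5′ exonuclease that degrades single-stranded RNA, had 36.9, 32.3 and 244 normalised reads in parental cells with AAVS1 and 1585, 761 and 1684 with guide 395. The lowest of the guide 395 values was above all 15 other libraries of the series. The means were 104.5 ± 121 and 1344 ± 507 (SD, n = 3), a ratio of 12.9 (log2 4.23 ± 0.82 SE, limma adjusted p = 0.0154). Ordered by mean, parental cells with guide 395 were followed by DDX3Yoe with guide 395 (167), DDX3Xoe with guide 395 (121), parental with AAVS1, DDX3Yoe with AAVS1 (92.5) and DDX3Xoe with AAVS1 (62.1). Below the top group each neighbour in that order overlapped the next. The ISG20 call was lost without either of the AAVS1 libraries 1 and 2 (adjusted p = 0.0556 and 0.108) or the guide 395 libraries 1 and 3 (0.0615 and 0.0697).

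CMPK2 is a mitochondrial UMP-CMP kinase that supplies CTP. It had 4.03, 3.72 and 13.4 normalised reads in parental cells with AAVS1 and 316, 157 and 150 with guide 395. The means were 7.05 ± 5.49 and 208 ± 93.5 (SD, n = 3), a ratio of 29.5, and log2 was 4.81 ± 1.00 SE (limma adjusted p = 0.021). Outside parental cells with guide 395 the highest CMPK2 value was 50.01, in DDX3Xoe with guide 395 replicate 2. It was at 0 in DDX3Xoe AAVS1 replicate 1 and DDX3Yoe AAVS1 replicate 2, where a count of 0 allows up to 0.33 and 0.436 CPM (counts per M reads), counting error only. The CMPK2 call was lost without each parental library except AAVS1 replicate 3 (adjusted p from 0.0618 to 0.118). It was also lost with a pseudocount of 0.1 (0.123).

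RSAD2, or viperin, converts CTP into a chain-terminating nucleotide. Its parental values were 148, 113 and 571 normalised reads with AAVS1 and 3830, 1563 and 2430 with guide 395, without overlap. The ratio of means was 9.41, and log2 was 3.52 ± 1.12 SE, which did not pass the test (limma adjusted p = 0.109, and 0.0487 with the block within each cell line). Its range over all 18 libraries, from 9.03 to 3830, was a factor of 424.

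SAMHD1 breaks down deoxynucleoside triphosphates. Its parental values were 1746, 1888 and 1946 normalised reads with AAVS1 and 2611, 2096 and 2596 with guide 395. They did not overlap, but the log2 difference was only 0.38 ± 0.47 SE (limma adjusted p = 0.731). Over all 18 libraries SAMHD1 spanned a factor of 4.92.

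The MX GTPases showed the same arrangement of libraries. MX1, which traps viral nucleoprotein complexes in the cytoplasm, had 119.5, 185 and 353 normalised reads with AAVS1 in parental cells and 1194, 910 and 1846 with guide 395. Its log2 difference was 2.66 ± 0.73 SE (limma adjusted p = 0.0686). MX2, which acts on the HIV-1 capsid at the nuclear pore, had 138, 81.9 and 459 with AAVS1 and 3067, 1668 and 1985 with guide 395. Its log2 difference was 3.64 ± 0.97 SE (adjusted p = 0.0622), and neither gene passed the test. With the replicate number as a block, MX2 passed it (adjusted p = 0.042), and with the block within each cell line both did (0.0168 for MX1 and 0.0207 for MX2).

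Of the membrane proteins, BST2 (tetherin), which holds budding virions at the cell surface, had 548, 315 and 1382 normalised reads in parental cells with AAVS1. With guide 395 it had 5240, 3538 and 4438, a ratio of means of 5.89 (log2 2.81 ± 0.85 SE, limma adjusted p = 0.0912). The groups did not overlap, but the test was not passed, except with the block within each cell line (adjusted p = 0.041). One library outside parental cells with guide 395 reached their range, DDX3Yoe with guide 395 replicate 2 at 3732.

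IFITM proteins stiffen membranes against viral fusion. IFITM1, found mainly at the plasma membrane, had 12.1, 4.96 and 10.04 normalised reads in parental cells with AAVS1 and 202, 115 and 61.5 with guide 395. IFITM2 had 28.9, 60.8 and 49.1 with AAVS1 and 215, 95.4 and 321 with guide 395. Neither gene's groups overlapped, and neither passed the test, with log2 3.58 ± 1.16 SE (limma adjusted p = 0.112) for IFITM1 and 2.06 ± 0.73 SE (0.148) for IFITM2. With the block within each cell line IFITM1 passed (0.0275) and IFITM2 did not (0.0977). Because the annotated 3′ exons of IFITM1 and IFITM2 overlap, these 2 results may not be separate measurements. IFITM3, an endosomal member of the family, had 16639, 39116 and 34507 with AAVS1 and 33824, 30658 and 45640 with guide 395. The IFITM3 groups overlapped (log2 0.36 ± 0.55 SE, adjusted p = 0.798). IFITM3 and SAMHD1 varied least of the 10 genes by highest over lowest library, with factors of 5.47 and 4.92 over the series.

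Other quantities differed with the guide in parental cells as well. Mitochondrially encoded transcripts made up 11.3 to 16.5% of reads with AAVS1 and 7.78 to 11.1% with guide 395. Of 15 immune cell markers, 9 were at 0 in each of these 2 groups, and their summed level was 23.5 to 99.3 with AAVS1 and 57.1 to 185 with guide 395. Most of that sum was CD68, a lysosomal protein that non-immune cells also make, at 22.8 to 80.3 and 51.2 to 178. Over all 18 libraries, CD3D, MS4A1, NKG7 and CLEC4C were at 0 in every one. The general leukocyte marker PTPRC was at 0 in 11 and reached 6.69, CD3E and CD8A were each at 0 in 15, and CD4 in 17. GNLY was at 0 in 13 (highest 8.62), CD14 in 4 (9.02), ITGAM in 7 (7.66) and CSF1R in 12 (18.6). The part of these shifts in the results was not tested. In bulk RNA, more cells expressing a gene and more RNA per cell cannot be told apart.

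**Figure D2:**
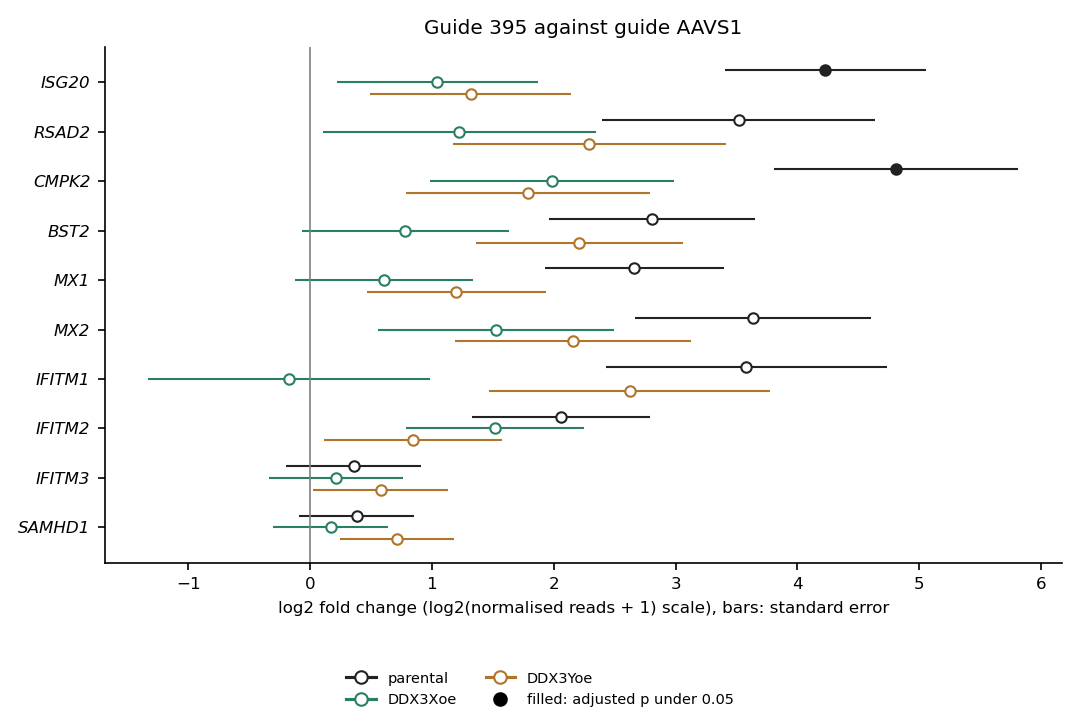
The horizontal axis gives the log2 fold change of guide 395 against AAVS1 on the log2(normalised reads + 1) scale, with bars of 1 standard error. Genes are on the vertical axis and colours give the cells. Only the parental points of ISG20 and CMPK2 are filled, which marks an adjusted p under 0.05.

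In DDX3Xoe cells no restriction factor was called between the guides, and no gene of the 15228 was (0% called higher). The targeted gene DDX3X had 668, 1504 and 1162 normalised reads there with AAVS1 and 1416, 716 and 578 with guide 395 (log2 -0.33 ± 0.30 SE). DDX3X was thus lower with guide 395 in replicates 2 and 3, and higher in replicate 1, whose libraries ran against their labels. The part of this in the results was not tested. The median over the 10 genes was 0.91 on the log2 scale, with a range from -0.17 for IFITM1 to 1.99 ± 1.00 SE for CMPK2, and every limma adjusted p was 1. An unadjusted p under 0.05 was found for 0 of the 10 genes with limma, 1 with edgeR and 2 with DESeq2, against 2.07%, 1.79% and 2.45% of all genes. Neither count model called any. No gene's guide 395 libraries all lay above its AAVS1 libraries, as was so for 1.83% of all genes. Without both replicate 1 libraries labelled DDX3Xoe the median was 0.88, and again 0 were called.

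Replicates of DDX3Xoe were spread widely within each guide. ISG20 had 21.7, 52.2 and 112 normalised reads with AAVS1 and 48.0, 180 and 134 with guide 395. BST2 had 191, 1118 and 687 with AAVS1 and 347, 2428 and 889 with guide 395. For both genes replicate 2 with guide 395 was the highest library and replicate 1 with AAVS1 the lowest, and the 2 groups overlapped. RSAD2 went from 41.4, 276 and 234 to 115, 1342 and 225, and MX2 from 28.6, 203 and 239 to 123.3, 1129 and 244. IFITM3 had its highest value of the whole series, 59234, in a control library, DDX3Xoe AAVS1 replicate 2.

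In DDX3Yoe cells 0 of the 10 genes were called higher with guide 395, beside 0% of all genes. The median was 1.56 on the log2 scale, with a range from 0.58 for IFITM3 to 2.62 ± 1.16 SE for IFITM1. All 10 limma adjusted p were 1, and 3 genes (BST2, MX2 and IFITM1) had an unadjusted p under 0.05, against 1.005% of all genes. With edgeR and DESeq2 1 and 2 genes had an unadjusted p under 0.05, against 0.893% and 1.35% of all genes, and 0 were called. Guide 395 libraries lay above AAVS1 libraries without overlap for 4 genes, BST2, MX2, CMPK2 and IFITM1, as was so for 3.8% of all genes.

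The size of these differences moved with 1 control library, AAVS1 replicate 2. Without it the median over the 10 genes was 0.49 instead of 1.56, and 0 had an unadjusted p under 0.05. BST2 had 860, 85.2 and 707 normalised reads with AAVS1 and 1055, 3732 and 1324 with guide 395. RSAD2 had 348, 9.03 and 255 with AAVS1 and 458, 848 and 270 with guide 395. For both genes replicate 2 was the lowest AAVS1 library and the highest guide 395 library. Without both replicate 2 libraries labelled DDX3Yoe, an alternative chosen after seeing the data, the median was 0.23, again with no unadjusted p under 0.05. BST2 then stood at 0.60, MX2 at 0.63 and IFITM1 at 1.12.

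Differences between libraries of the same number showed this spread in each kind of cell. In parental cells the median over the 10 genes of guide 395 minus AAVS1 was 3.63, 3.63 and 2.25 on the log2 scale for replicates 1, 2 and 3, with 10, 9 and 10 genes above 0. In DDX3Xoe the medians were 1.14, 1.44 and 0.26, with 9, 8 and 7 genes above 0. In DDX3Yoe they were 0.40, 3.94 and 0.15, with 10, 10 and 6 genes above 0. The DDX3Yoe replicate 2 difference was thus as large as those in parental cells, and the other 2 were small. Deviations of same-numbered libraries from their group means correlated at -0.028 to 0.3 in the transgenic cells and 0.201 to 0.570 in parental cells. These ranges overlap, and libraries of unlike number were not compared, so whether the numbers mark pairs is not known.

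Whether the guide effect differed between kinds of cell was tested directly. DDX3Xoe minus parental was below 0 for all 10 genes, with a median of -2.09 and the smallest limma adjusted p for ISG20 (-3.18 ± 1.17 SE, 0.499). None was called lower, beside 0.0263% of all genes. An unadjusted p under 0.05 was found for 2, ISG20 and IFITM1, and for 8.143% of all genes. Without both replicate 1 libraries labelled DDX3Xoe the median was -2.36, with 10 of 10 below 0 and 0 called. With edgeR and DESeq2, 4 genes each had an unadjusted p under 0.05, against 8.07% and 9.52% of all genes, and 0 were called. DDX3Yoe minus parental was below 0 for 8 of the 10, with a median of -1.22, and SAMHD1 (0.33) and IFITM3 (0.22) were above 0. None was called, beside 0% of all genes, and 2 had an unadjusted p under 0.05 with each of limma, edgeR and DESeq2. Of all genes, 4.84%, 4.98% and 5.95% had one, respectively. Without both replicate 2 libraries labelled DDX3Yoe the median was -2.55, with 10 of 10 below 0 and 0 called. That pair was singled out by its values for these same genes, so medians without it are not separate support. DDX3Yoe minus DDX3Xoe had a median of 0.57, with 0 genes called and 0 with an unadjusted p under 0.05 by limma, edgeR or DESeq2, beside 0% of all genes called. That median was 0.80 without both replicate 1 libraries labelled DDX3Xoe, and turned to -0.73, with 2 of 10 above 0, without both replicate 2 libraries labelled DDX3Yoe. These differences share groups and are not independent of one another.

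Under the control guide, no restriction factor was called between kinds of cell, beside 0% of all genes in each of the 3 comparisons. DDX3Xoe against parental had a median of -0.36 on the log2 scale and 1 unadjusted p under 0.05, for IFITM2 (-1.56 ± 0.73 SE), against 0.985% of all genes. DDX3Yoe against parental had a median of -0.55 and no unadjusted p under 0.05. Both medians changed sign when libraries were left out: 0.23 without both replicate 1 libraries labelled DDX3Xoe, and 0.41 without both replicate 2 libraries labelled DDX3Yoe. The DDX3Yoe pair was singled out because its AAVS1 library was low for these same genes. A rise of the DDX3Yoe mean without it was therefore built in, and no conclusion is drawn from it. DDX3Yoe against DDX3Xoe had a median of -0.10. It was 0.94, with 10 of 10 above 0, without both replicate 2 libraries labelled DDX3Yoe, and -0.71, with 0 of 10 above 0, without both replicate 1 libraries labelled DDX3Xoe. By edgeR and DESeq2, too, 0 genes were called in these 3 comparisons, and the counts with an unadjusted p under 0.05 were 1, 0 and 0 as with limma. For DDX3Xoe against parental, 0.9325% of all genes had one by edgeR and 1.446% by DESeq2.

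Under guide 395, the fitted differences of the transgenic lines from parental cells were below 0 for all 10 genes, but 1 was called in DDX3Xoe and 0 in DDX3Yoe. Both comparisons use the same parental libraries as the guide effect, so they are not independent of it. In DDX3Xoe the median was -2.50 on the log2 scale, or -1.89 without both replicate 1 libraries labelled DDX3Xoe, and ISG20 was called lower (-3.58 ± 0.82 SE, limma adjusted p = 0.0343), 1 of 10 beside 1.27% of all genes. CMPK2 (-3.73 ± 1.00 SE) had an adjusted p of 0.0613, or 0.0377 with the replicate block, under which 2 genes were called, beside 2.69% of all genes called lower. The ISG20 call was lost without any single library of these 2 groups (adjusted p from 0.0513 to 0.136). It was also lost without both replicate 1 libraries labelled DDX3Xoe (-3.02, 0.0946).

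In DDX3Yoe with guide 395 the median against parental cells was -1.97, and 0 of 10 were called lower, beside 0.131% of all genes. ISG20 stood at -2.95 ± 0.82 SE (limma adjusted p = 0.122, and 0.0425 with the replicate block, which called 0.847% of all genes lower) and CMPK2 at -3.54 ± 1.00 SE (0.123). An unadjusted p under 0.05 was found for 5 genes with limma, edgeR and DESeq2 alike, against 13.27%, 13.33% and 15.42% of all genes. DESeq2 called 3, CMPK2, ISG20 and IFITM2, beside 1.66% of all genes called lower by DESeq2. IFITM3 (-0.14 ± 0.55 SE) and SAMHD1 (-0.12 ± 0.47 SE) were close to 0, and turned positive without single libraries (up to 0.16 and 0.037). Between DDX3Yoe and DDX3Xoe under guide 395 the median was 0.51, with 0 genes called and 0 at an unadjusted p under 0.05 by limma, edgeR or DESeq2, beside 0% of all genes called. Without both replicate 1 libraries labelled DDX3Xoe that median was 0.050, with 6 of 10 above 0, and without both replicate 2 libraries labelled DDX3Yoe it was 0.30.

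**Figure D3:**
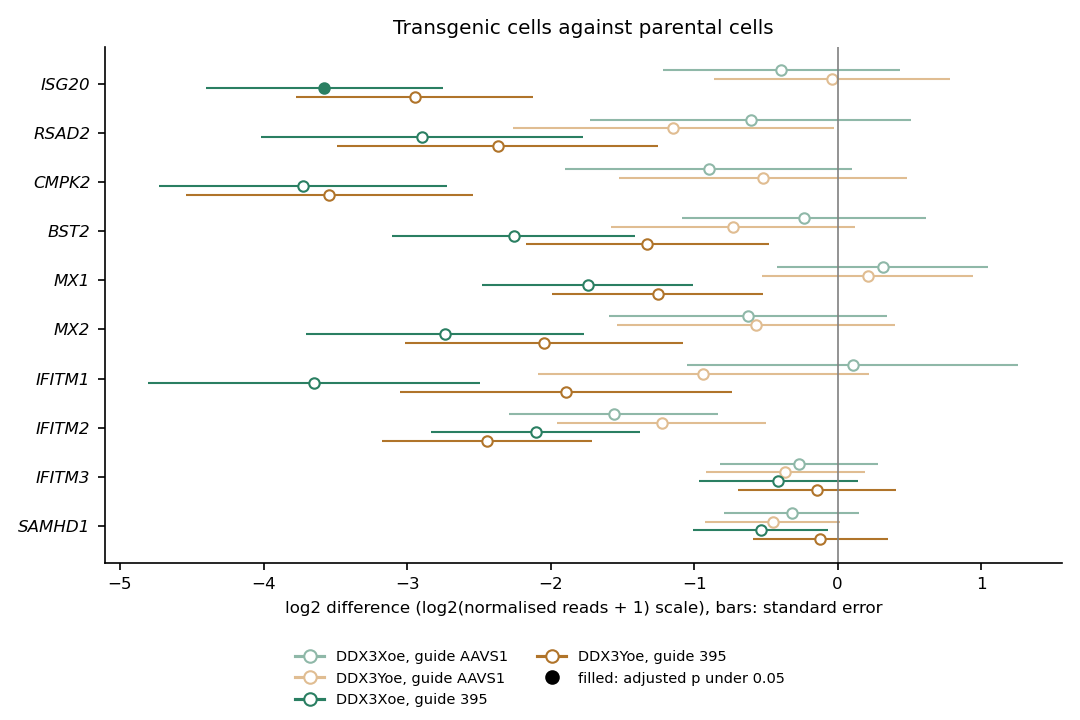
The horizontal axis gives the log2 difference of DDX3Xoe (green) or DDX3Yoe (brown) from parental cells, pale under AAVS1 and dark under guide 395, with bars of 1 standard error, and genes on the vertical axis. Under AAVS1 most points lie within 1 unit of 0, while under guide 395 all lie below 0 and only ISG20 in DDX3Xoe is filled (adjusted p under 0.05).

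The restriction factors varied together over the libraries, within groups as well as between them. RSAD2 and MX2 were the closest pair (Pearson r 0.984 over 18 libraries, and 0.982 after group means were removed). SAMHD1 and IFITM3 were closest to each other over all libraries (0.908). After group means were removed that pair stood at 0.895, and both were closer to MX1, SAMHD1 at 0.906 and IFITM3 at 0.916. IFITM1 went with ISG20 far less within groups (0.312) than over all libraries (0.703). All these values are descriptions over libraries that share groups and size factors. The parental libraries with guide 395 were the top 3 of 18 for 7 genes, CMPK2, IFITM1, IFITM2, ISG20, MX1, MX2 and RSAD2. At the other end, DDX3Yoe AAVS1 replicate 2 was among the 2 lowest for all 10 genes and DDX3Xoe AAVS1 replicate 1 for 9.

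**Figure D4:**
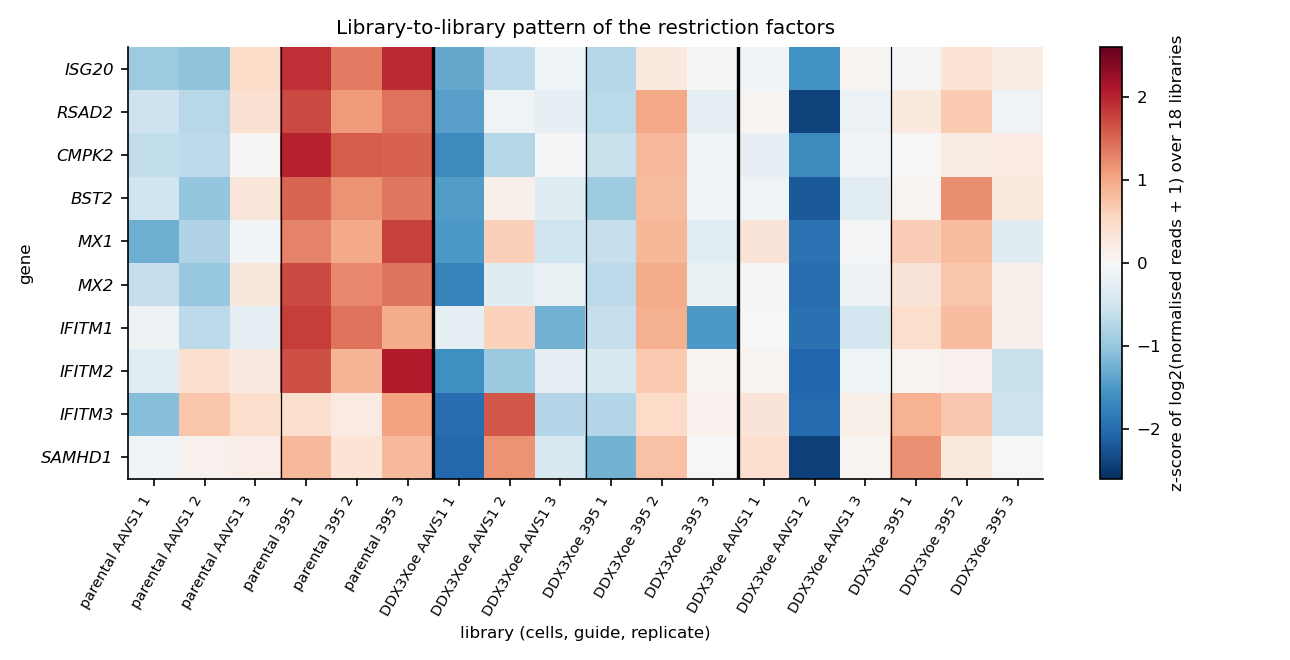
Rows are genes, columns are the 18 libraries in their groups, and colour is each gene's z-score of log2(normalised reads + 1) over the 18 libraries. The 3 parental libraries with guide 395 are red in nearly all rows, and the columns of DDX3Xoe AAVS1 replicate 1 and DDX3Yoe AAVS1 replicate 2 are blue in nearly all.

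Among the tested genes outside the 10 whose libraries followed the mean z-score of the restriction factors most closely were OAS1 (r 0.988), IFIT3 (0.979), ISG15 (0.966) and SP110 (0.965), of 9052 genes compared over 18 libraries. OAS1 had 542.5 to 1116 normalised reads in parental cells with AAVS1 and 2271 to 2984 with guide 395. IFIT3 had 3839 to 5589 and 15090 to 28030 respectively. Neither gene's parental groups overlapped, and 10.7% of all genes tested were higher with guide 395 without overlap. Both genes were picked for following a score that itself separates these groups, so this is not separate support.

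Of 45 other restriction factors, 39 were tested, and 38 of these were above 0 for guide 395 in parental cells, with a median of 0.92 on the log2 scale, where 51.11% of all genes were above 0. Called higher were 3 of the 39, beside 0.978% of all genes tested. They were IFIT2, which binds viral RNA (3.22 ± 0.64 SE, limma adjusted p = 0.0174), the cytidine deaminase APOBEC3F (2.44 ± 0.57 SE, 0.0362) and LY6E, which hinders virus fusion (2.24 ± 0.54 SE, 0.0421). Leaving out single parental libraries ended each of these calls, in 4, 5 and 5 of 6 cases. In DDX3Xoe and DDX3Yoe 0 were called between the guides, with medians of 0.41 and 0.60. Under guide 395, 4 of the 39 were called lower in DDX3Xoe than in parental cells, beside 1.27% of all genes. They were LY6E, APOBEC3D, IFIT2 and APOBEC3F (limma adjusted p from 0.023 for LY6E, at -2.55 ± 0.54 SE, to 0.0458 for APOBEC3F, at -2.26 ± 0.57 SE). Those calls, too, were lost without single libraries, in 4, 6, 5 and 6 of 6 cases. APOBEC3D stood at -4.47 ± 0.99 SE, and the libraries in which it reached the filter value were not counted. Its call is therefore not separate support.

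Upstream of these genes, interferon transcripts were scarce. Of 21 interferon genes only IFNL1, a type III interferon, passed the filter on low values. It had 5.37, 0 and 6.69 normalised reads in parental cells with AAVS1 and 81.8, 9.84 and 41.7 with guide 395 (log2 3.20 ± 1.09 SE, limma adjusted p = 0.134). In DDX3Xoe with guide 395 it had 1.14, 0 and 0.88, lower than in parental cells (log2 -4.41 ± 1.09 SE, adjusted p = 0.0445, lost without 5 of the 6 single libraries). In that comparison 1.27% of all genes were called lower. IFNL1 reached the filter value of 10 only in parental guide 395 replicates 1 and 3 and in DDX3Xoe AAVS1 replicate 2 (10.65). It was thus tested mainly through the group where it was high, so this call is not separate support. IFNB1, a type I interferon, was at 0 in 13 libraries. Its highest values, 15.4 and 73.0, were both parental replicate 1 libraries, with AAVS1 and guide 395 respectively. Guide 395 replicates 2 and 3 had 0.98 and 0 normalised IFNB1 reads. The part of these interferon transcripts in the results was not tested.

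Of 19 interferon receptor and signalling genes, all tested, 2 were called higher with guide 395 in parental cells, beside 0.978% of all genes. They were the kinase JAK2 (1.69 ± 0.33 SE, limma adjusted p = 0.0173) and IRF7, a transcription factor that amplifies interferon production (2.21 ± 0.48 SE, 0.027). Each call was lost without 5 of 6 single libraries. Under guide 395, JAK2 was lower in DDX3Xoe than in parental cells (-2.15 ± 0.33 SE, adjusted p = 0.00425), and remained called without any 1 of the 6 libraries. IRF7 was lower there as well (-2.30 ± 0.48 SE, 0.021), a call lost without 4 of 6. These 2 of 19 stood beside 1.27% of all genes called lower. Neither DDX3Xoe call is given here without both replicate 1 libraries labelled DDX3Xoe. In DDX3Yoe JAK2 was also called lower than in parental cells (-1.71 ± 0.33 SE, 0.0459), beside 0.131% of all genes. That call did not hold without any 1 of the 6.

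Of 11 nucleic acid sensors 9 were tested, and 1 was called higher with guide 395 in parental cells, beside 0.978% of all genes. This was ZBP1, a sensor of Z-form nucleic acid (5.68 ± 0.84 SE, limma adjusted p = 0.00273). It remained called without any 1 of the 6 libraries (adjusted p up to 0.026), but not with a pseudocount of 0.1 (0.0609). The filter on low values was not redone when libraries were left out, and the libraries in which ZBP1 reached it were not counted. Whether ZBP1 was tested mainly through the group where it was high is therefore not known, and its calls are not separate support. Under guide 395, ZBP1 was called lower than in parental cells in DDX3Xoe (-5.32 ± 0.84 SE, 0.00465) and in DDX3Yoe (-4.24 ± 0.84 SE, 0.0459). Of all genes, 1.27% and 0.131% were called lower in these comparisons. The DDX3Xoe call is not given here without both replicate 1 libraries labelled DDX3Xoe. The DDX3Yoe call was lost without any 1 of the 6 libraries. No sensor was called between the guides in DDX3Xoe or DDX3Yoe cells, where the smallest p belonged to IFIH1 (1.02 ± 0.63 SE) and ZBP1 (1.54 ± 0.84 SE), both with an adjusted p of 1.

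The 18 other genes of deoxynucleotide metabolism, the pathway in which SAMHD1 and CMPK2 work, were all tested. Limma called none in any of the 12 comparisons, and their median for guide 395 in parental cells was -0.18, with 7 of 18 above 0. The smallest p there belonged to ADA, adenosine deaminase (-1.20 ± 0.42 SE, limma adjusted p = 0.14), and TYMS, thymidylate synthase (-1.18 ± 0.76 SE, 0.456). CMPK1, the cytosolic counterpart of CMPK2, stood at -0.68 ± 0.28 SE in DDX3Xoe against parental cells under guide 395 (0.203).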

How the data were processed

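Libraries were made from total RNA with the QuantSeq 3′ mRNA-Seq kit, per the labels' protocols, so reads lie near transcript 3′ ends and do not grow with transcript length. The deposited signal is normalised reads: the values show that the authors divided gene counts by 1 size factor per library. Values were whole multiples of a column's smallest positive value in 100% of cases (tolerance 0.01), which gave the reads back. Per the submitters' processing notes the tools were featureCounts 1.5.1, STAR 2.5.2b, limma and RSEM 1.3.0, with no roles, and the build GRCh38. The gene annotation and strand handling are not given in the sources used here. Samples were grouped by their titles, and positions come from GENCODE 29, which held 57446 of 58050 identifiers.

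The test covered the 15228 genes that reached 10 in 3 or more libraries, and 29485 were at 0 everywhere. Log2(value + 1) was fitted with limma 3.58.1 (R 4.3.3, intensity trend, 6 group means over 18 libraries) in 12 comparisons, each adjusted over all genes tested. Fold changes on this scale understate those of low genes. edgeR 4.0.16 and DESeq2 1.42.0 were run on the recovered reads as alternatives. Limits from a count of 0 (3 reads) cover counting error only.

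The members and gene lists were chosen with earlier results of these data known. Named genes were the 10 members, DDX3X, from each list up to 6 called members or else up to 2 with the smallest p, and the 5 genes most alike in Pearson r above the 40th percentile of mean, of which 1 is not reported here. IFNB1 and CD68 were added after their values were seen. Deviations of same-numbered parental libraries from their group means correlated at r 0.570, 0.201 and 0.280. In DDX3Xoe the values were 0.232, -0.028 and 0.300, and in DDX3Yoe 0.0745, 0.114 and 0.238. Some of these were as high as in parental cells, and libraries of unlike number were not compared. Whether the numbers mark pairs is therefore not known in any kind of cell. Other alternatives were quantile normalisation, median-centring, pseudocounts of 0.1 and 5, a filter of 50 or none, the compared groups alone, no intensity trend, the replicate block, leaving out libraries, and, for promoters, 1 mismatch or the whole 300-base window.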

Additional observations from a re-analysis of the deposited data

How the results depend on the processing

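In parental cells 2 restriction factors were called higher with guide 395 in the fit reported. The count was 1 with a pseudocount of 0.1, 4 with a pseudocount of 5 or without both replicate 1 libraries labelled DDX3Xoe, 7 with the compared groups alone, 7 with DESeq2 and 7 with a replicate block within each cell line. It was 3 with 1 replicate block over all libraries, and between 0 and 3 when single libraries were left out. Over all genes, 149 of 15228 were called higher in the fit reported. That number was 134 and 204 with pseudocounts of 0.1 and 5, 210 without both replicate 1 libraries labelled DDX3Xoe and 66 with the compared groups alone. It was 445 of 15211 with DESeq2, 336 with 1 replicate block and 384 with the block within each cell line. For DDX3Xoe against parental cells under guide 395 it was 1 in the fit reported. It became 2 with a pseudocount of 5, quantile normalisation or the replicate block, 3 with the compared groups alone, DESeq2 or the block within each cell line, and 0 without an intensity trend or without both replicate 1 libraries labelled DDX3Xoe. Leaving out single libraries gave 0 to 2. All genes called lower there numbered 193 of 15228 in the fit reported. They were 244 with a pseudocount of 5, 173 with quantile normalisation, 409 with the replicate block and 172 with the compared groups alone. With DESeq2 they were 467 of 15211, with the block within each cell line 476, without an intensity trend 156 and without both replicate 1 libraries 68. For DDX3Yoe against parental cells under guide 395 the count of 0 became 1 with a pseudocount of 5 or with either replicate block, 5 with the compared groups alone and 3 with DESeq2. All genes called lower there rose as well, from 20 of 15228 to 63 with a pseudocount of 5 and 150 with the compared groups alone. They were 129 with the replicate block, 103 with the block within each cell line and 252 of 15211 with DESeq2. In the other 9 comparisons 0 were called under every alternative run. The replicate block changed no other call among the 10 genes. The cause of these shifts was not tested. Over all genes, the 271 called in parental cells became 677 with the replicate block, 737 with a block within each cell line, 927 with DESeq2, 159 without a filter, 83 with the compared groups alone, 144 without both replicate 2 libraries labelled DDX3Yoe and 60 to 366 without single libraries. Direction changed only for log2 values that were not called. In DDX3Xoe, IFITM1 became 0.40 with edgeR, 0.44 with DESeq2 and 0.091 without both replicate 1 libraries, IFITM3 became -0.097 with edgeR and with DESeq2 and -0.086 without both, and SAMHD1 became -0.0013 without both. Without both replicate 2 libraries labelled DDX3Yoe, the guide effect there became -0.33 for IFITM2 and -0.044 for IFITM3, and its difference from parental cells became -0.17 for SAMHD1 and -0.40 for IFITM3. IFITM1 in that difference became 0.049 with a pseudocount of 0.1. Without single libraries the guide effect ranged from -0.022 to 0.59 for IFITM3 in parental cells. In DDX3Xoe it ranged from -0.058 to 1.31 for MX1, -0.34 to 0.68 for SAMHD1, -1.53 to 0.97 for IFITM1 and -0.33 to 0.88 for IFITM3, and in DDX3Yoe from -0.15 to 1.41 for IFITM2. DDX3Xoe minus parental ranged from -0.72 to 0.29 for SAMHD1 and -0.68 to 0.53 for IFITM3. DDX3Yoe minus parental ranged from -1.66 to 0.0046 for BST2, -0.23 to 0.68 for SAMHD1 and -0.29 to 0.60 for IFITM3. DDX3Yoe against parental cells under guide 395 ranged from -0.34 to 0.037 for SAMHD1 and -0.33 to 0.16 for IFITM3. Depth limits CMPK2, IFITM1 and IFITM2 most, which had as few as 0, 0 and 3 reads in a library.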
